A study of Mus musculus with 12 samples.

Results

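The cell cycle and DNA replication genes described here are 49 genes chosen by name, of which 48 had a transcript cluster with a single gene symbol on the array, out of 19938 genes measured that way. Ccnb1, the mitotic cyclin B1, had no such cluster and is not described. The members fall into 4 classes: 16 S-phase genes that license, build or supply the replication fork, 23 measured mitotic genes, 4 G1 cyclins (Ccnd1, Ccnd2, Ccne1, Ccne2) and 5 regulators (E2f1, E2f8, Mybl2, Foxm1, Brca1). A gene with several clusters was represented by its brightest.

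RNA came from cultured fibro/adipogenic progenitors (FAPs), the PDGFRα-positive mesenchymal cells of skeletal muscle, isolated from uninjured hindlimbs of male wild-type C57/Bl6 mice 8 to 12 weeks old. Cells grew for 2.5 days, received 10 µM antisense oligonucleotide (AMO) for 48 hours, and then received the same AMO a second time in Opti-Mem, a medium of reduced serum, for the last 48 hours. The AMOs are labelled control, pA and 5'ss, and the labels give no target sequence. Each was combined with 0 or 50 µM PDGF-AA, the dose as the labels state it, which makes 6 groups of 2 arrays, each array from cells pooled from 2 mice. All 6 groups were transfected, so none shows untransfected cells. The title of the series concerns how intronic polyadenylation of PDGFRα affects fibrosis of muscle, and the comparisons here ask how the proliferation genes stood under the 3 AMOs and with the ligand.

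In a dividing cell, D-type cyclins made in response to growth factors activate Cdk4 and Cdk6, which releases E2F transcription factors, and these switch on cyclin E and the genes of DNA replication. Later, the MuvB complex together with B-Myb and FoxM1 switches on the genes of G2 and mitosis, whose promoters carry CHR and CCAAT elements. FAPs are largely quiescent in resting muscle and divide after injury and in culture, and PDGF-AA, which binds PDGFRα, is a known mitogen of such cells.

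Promoter sequence is shown because S-phase and mitotic genes are known for these different elements and the comparisons set the classes against each other. RefSeq promoter windows of GRCm38.p6 (250 bases before to 50 after a start, 300 in all) were matched by symbol for 38 members. Letters searched on both strands were TTTCCCGC, TTTCGCGC, TTTGCCGC and TTTGGCGC for E2F, TTTGAA and TTCGAA for CHR, and CCAAT for the CCAAT box. No motif contains another, though sites may share bases, and a match is a run of letters, not a shown site of binding. E2F letters were in 6 of 13 S-phase genes and 1 of 20 mitotic genes (Cdk1; Ccnb1 is among the 20), against 2.6% of all 27025 genes with a window. CHR letters were in 16 of the 20 mitotic genes and 3 of 13 S-phase genes, against 21.7% of all genes. CCAAT letters were in 17 mitotic and 9 S-phase genes, against 41.1%, and 15 of the 20 mitotic genes had both CHR and CCAAT letters, against 9.65%. The stretches printed are the 150 bases before the start, with motif letters in capitals. They are 5 mitotic members with both CHR and CCAAT letters in that stretch, taken by the smallest p between pA and 5'ss AMO. The 3 S-phase members with E2F letters in it follow. Few mitotic genes had such letters, so the 5 are not the mitotic members that differed most. Cdc20 had an unadjusted p of 0.418 and Cdk1 one of 0.582 in limma. Kif20a, Tpx2 and Ccna2, among others, had no window. Over this shorter stretch CHR letters were in 6 of 20 mitotic genes and in 11.2% of all genes, and E2F letters were in 3 of 13 S-phase genes and 1.44% of all.
Mki67 promoter, chr7:135716380-135716529, minus strand: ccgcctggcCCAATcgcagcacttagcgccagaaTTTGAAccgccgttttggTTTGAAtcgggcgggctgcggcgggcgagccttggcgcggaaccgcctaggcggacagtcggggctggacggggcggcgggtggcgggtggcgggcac
Kif11 promoter, chr19:37376232-37376381, plus strand: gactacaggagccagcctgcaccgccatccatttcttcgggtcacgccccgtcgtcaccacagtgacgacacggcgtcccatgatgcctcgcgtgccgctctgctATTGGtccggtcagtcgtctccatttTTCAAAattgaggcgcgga
Top2a promoter, chr11:99024190-99024339, minus strand: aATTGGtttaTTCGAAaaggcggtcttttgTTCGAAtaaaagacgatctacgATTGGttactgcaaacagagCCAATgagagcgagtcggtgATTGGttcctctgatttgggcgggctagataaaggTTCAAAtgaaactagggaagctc
Cdc20 promoter, chr4:118437344-118437493, minus strand: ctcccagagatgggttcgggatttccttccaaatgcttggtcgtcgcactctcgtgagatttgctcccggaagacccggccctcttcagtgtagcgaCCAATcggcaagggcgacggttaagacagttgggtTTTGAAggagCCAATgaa
Cdk1 promoter, chr10:69352913-69353062, minus strand: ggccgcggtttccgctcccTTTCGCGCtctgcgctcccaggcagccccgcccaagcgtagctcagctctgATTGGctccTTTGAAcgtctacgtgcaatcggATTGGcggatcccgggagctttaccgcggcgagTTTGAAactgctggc
Mcm5 promoter, chr8:75109359-75109508, plus strand: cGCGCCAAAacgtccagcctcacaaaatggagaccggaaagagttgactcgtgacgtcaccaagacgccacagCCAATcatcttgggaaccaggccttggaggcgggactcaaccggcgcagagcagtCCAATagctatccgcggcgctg
Mcm6 promoter, chr1:128359706-128359855, minus strand: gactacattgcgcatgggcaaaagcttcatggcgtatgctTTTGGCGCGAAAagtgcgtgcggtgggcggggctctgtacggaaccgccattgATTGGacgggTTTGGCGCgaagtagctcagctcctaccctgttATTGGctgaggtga
Cdc6 promoter, chr11:98908001-98908150, plus strand: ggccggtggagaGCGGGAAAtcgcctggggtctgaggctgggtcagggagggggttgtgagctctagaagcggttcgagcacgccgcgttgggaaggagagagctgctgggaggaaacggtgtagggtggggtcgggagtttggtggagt
In the Mki67 stretch 2 CHR matches lie downstream of a CCAAT box, in Cdk1 the E2F letters lie upstream of both other motifs, and in Mcm6 the first pair of E2F matches overlap on opposite strands.

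Values are the authors' log2 expression values, and each level is given in that unit, with replicate 1 before replicate 2. The arrays had medians from 6.04 to 6.23. FAP and fibroblast markers stood high as a list on every array, with means from 11.66 to 11.83, and Pdgfra was between 12.72 and 12.92. Thy1 was the lowest of them, at 8.38 to 8.97, beside 8.51 to 9.26 for the endothelial gene Tek. Ly6a, also on that list, had no cluster with a single symbol. Means of the other marker lists were 6.29 to 7.25 for myogenic, 6.39 to 6.67 for endothelial, 5.51 to 5.75 for macrophage and leukocyte, 6.22 to 6.40 for smooth muscle and pericyte, and 6.59 to 6.93 for Schwann cell genes. Adipocyte genes ranged most, from 7.34 to 9.66. Among replicate 1 arrays their mean lay at 7.34 to 8.12 except for 5'ss AMO with PDGF-AA, which had the 9.66, and among replicate 2 arrays it lay at 8.74 to 9.16. That array, 5'ss AMO with PDGF-AA replicate 1, also stands apart for the proliferation genes. In these bulk samples, fewer dividing cells and less of each transcript per cell cannot be told apart.

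Mitotic members spread more widely over the arrays than S-phase members. The distance between a gene's lowest and highest array had a median of 0.60 log2 over the 23 mitotic members (0.35 to 0.92) and of 0.31 over the 16 S-phase members (0.19 to 0.56), beside 0.46 over all 21789 clusters with 1 symbol. Of the mitotic members 19 had their lowest value on 5'ss AMO with PDGF-AA replicate 1, as did 6 of the S-phase members, 4 of the 5 regulators and 1 of the G1 cyclins, beside 8.23% of all clusters. The highest value of 12 mitotic members lay on pA AMO with PDGF-AA replicate 1 and of another 4 on replicate 2 of that group, beside 5.83% of clusters for replicate 1 and 12.2% for the pair of arrays.

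**Figure D1:**
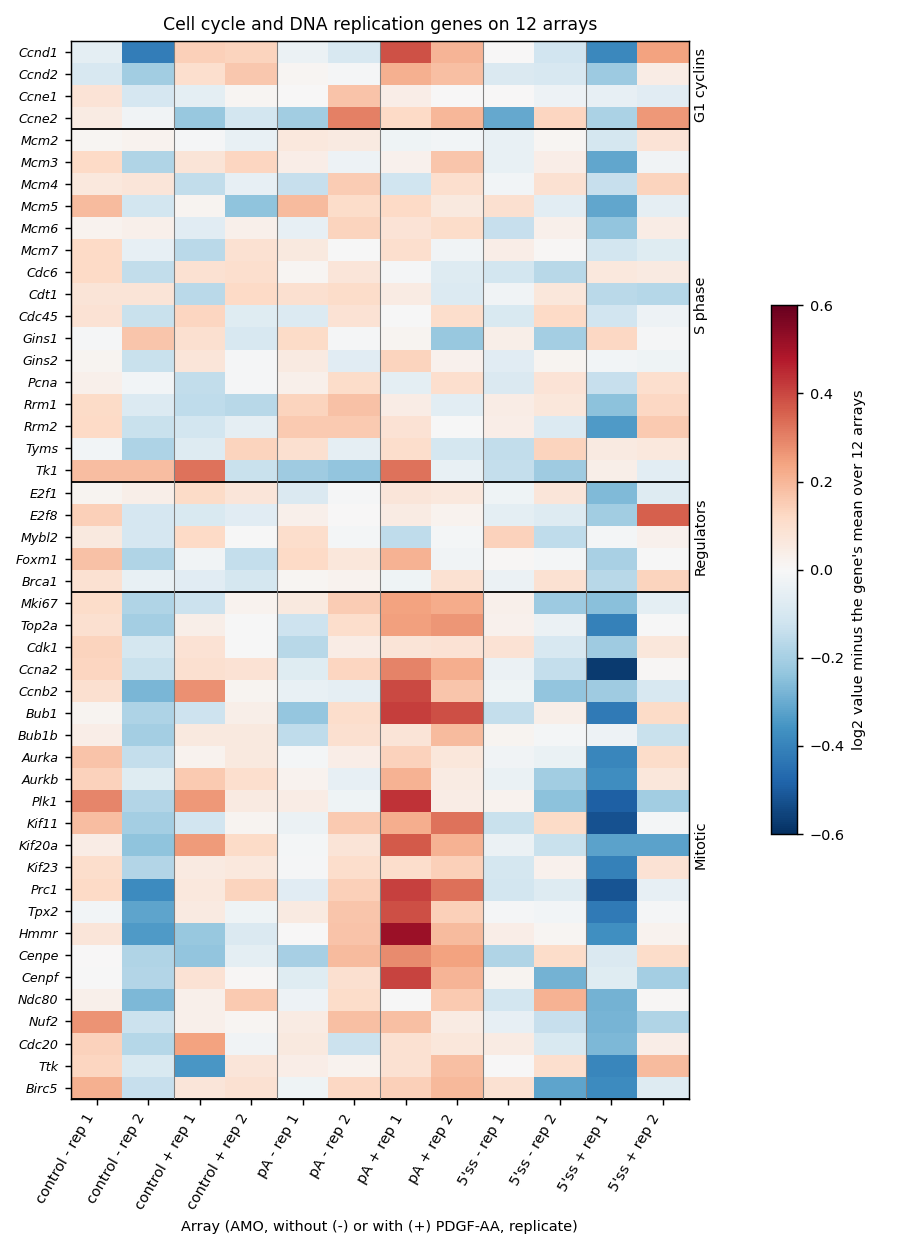
Heat map of the 48 measured members (rows, grouped by class) on the 12 arrays (columns), coloured by log2 value minus the gene's mean over the 12 arrays. The mitotic block is darkest blue on 5'ss AMO with PDGF-AA replicate 1, where 19 of 23 members had their lowest value, and red on both arrays of pA AMO with PDGF-AA, while the S-phase block is mostly paler, Tk1 apart.

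To set the classes side by side, each gene was centred on its mean over the 12 arrays and averaged within its class, as a description with no test. The mitotic mean was highest with pA AMO and PDGF-AA, at 0.248 and 0.180, and lowest with 5'ss AMO and PDGF-AA, at -0.335 and -0.023. With control AMO it was 0.109 and -0.194 without PDGF-AA and 0.031 and 0.039 with it. It was -0.040 and 0.083 with pA AMO alone, and -0.026 and -0.072 with 5'ss AMO alone. All 23 mitotic members were higher in replicate 1 than in replicate 2 of control AMO alone, by a median of 0.295.

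The S-phase mean stayed closer to 0. With control AMO it was 0.079 and -0.041 without PDGF-AA and -0.013 and -0.016 with it, and with pA AMO 0.036 and 0.047 without and 0.055 and 0.002 with it. It was -0.040 and -0.004 with 5'ss AMO alone and -0.122 and 0.019 with PDGF-AA. The difference, mitotic minus S phase, was 0.186 ± 0.011 (SD, n = 2) with pA AMO and PDGF-AA and 0.050 ± 0.008 with control AMO and PDGF-AA. In the other 4 groups it was -0.061 ± 0.13 (control AMO alone), -0.020 ± 0.080 (pA AMO alone), -0.027 ± 0.058 (5'ss AMO alone) and -0.128 ± 0.121 (5'ss AMO with PDGF-AA). The pA AMO group with PDGF-AA was the one in which the mitotic members stood farthest above the S-phase members, and both of its arrays lay above the other 10.

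**Figure D2:**
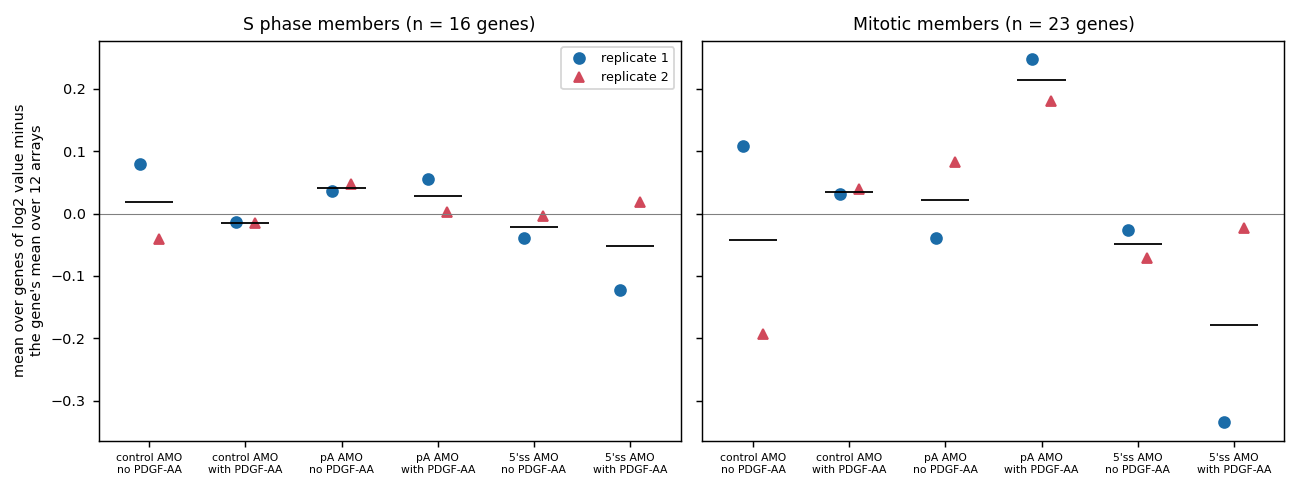
Class means per array: mean over genes of the log2 value minus each gene's mean over 12 arrays (y), by group (x), for S-phase (left) and mitotic members (right). Circles are replicate 1, triangles replicate 2 and bars the mean of both; mitotic values run from -0.335 to 0.248 and S-phase values from -0.122 to 0.079.

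The first question is what PDGF-AA did to the G1 cyclins, the members nearest to growth factor signalling. Ccnd1 read 9.81 and 9.45 with control AMO alone and 10.01 and 10.00 with PDGF-AA added, 9.83 and 9.77 with pA AMO alone and 10.25 and 10.07 with PDGF-AA, and 9.87 and 9.75 with 5'ss AMO alone and 9.48 and 10.11 with PDGF-AA. Ccnd1 encodes cyclin D1, which couples mitogens to Cdk4 and Cdk6, and with control and pA AMO both arrays with PDGF-AA lay above both without it. With 5'ss AMO the replicates went opposite ways, -0.39 in replicate 1 and 0.36 in replicate 2. Values of Ccnd2 without and with PDGF-AA were 11.54 and 11.43 against 11.74 and 11.80 under control AMO, 11.65 and 11.63 against 11.85 and 11.82 under pA AMO, and 11.55 and 11.54 against 11.42 and 11.68 under 5'ss AMO. Ccnd2, cyclin D2, had the same order: no overlap with control or pA AMO, and -0.13 and 0.14 within the replicates of 5'ss AMO. Of all clusters, 30.9% were higher with PDGF-AA in both replicates under control AMO and 24.2% under pA AMO. That is a looser count than no overlap, whose share was not counted, so how common no overlap is cannot be read from it. Among other members, Kif20a, Cenpf and E2f1 were also higher without overlap under both AMOs, and Mcm2 and Rrm1 were lower without overlap. Averaged over AMOs the PDGF-AA difference was 0.24 for Ccnd1 (SE 0.108, 6 arrays against 6) and 0.17 for Ccnd2 (SE 0.061). Neither passed in limma (adjusted p = 1.0 for both, unadjusted p = 0.0509 and 0.0209). With the replicate number as a block the adjusted p was 0.636 and 0.432.

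For Ccne1 the control AMO arrays read 8.08 and 7.90 without and 7.94 and 8.01 with PDGF-AA, the pA AMO arrays 8.00 and 8.17 and then 8.04 and 8.00, and the 5'ss AMO arrays 8.00 and 7.97 and then 7.95 and 7.93. Cyclin E1, which acts with Cdk2 at the start of S phase, showed no order by PDGF-AA under control or pA AMO. Under 5'ss AMO both of its arrays with PDGF-AA lay slightly below both without it. Averaged over AMOs its difference was -0.04 (SE 0.059). Under control AMO Ccne2 stood at 6.26 and 6.19 without and 5.98 and 6.10 with PDGF-AA, under pA AMO at 6.00 and 6.51 without and 6.33 and 6.41 with it, and under 5'ss AMO at 5.90 and 6.34 without and 6.02 and 6.47 with it. Cyclin E2 was higher in replicate 2 than in replicate 1 of all groups but control AMO alone, and its averaged PDGF-AA difference was 0.02 (SE 0.116). Under control AMO both of its arrays with PDGF-AA lay below both without it.

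S-phase members lay close to 0 with PDGF-AA. Averaged over AMOs their median difference was -0.03 (6 of 16 above 0), beside 0.0014 and 50.8% above 0 over all clusters. Mcm2 read 7.97 and 7.98 with control AMO alone and 7.95 and 7.91 with PDGF-AA added, 8.02 and 8.01 with pA AMO alone and 7.93 and 7.94 with PDGF-AA, and 7.91 and 7.97 with 5'ss AMO alone and 7.85 and 8.04 with PDGF-AA. Mcm2 is a subunit of the replicative helicase, and its 12 values span 0.19, the narrowest of all S-phase members. Values of Pcna without and with PDGF-AA were 10.00 and 9.95 against 9.82 and 9.96 under control AMO, 10.00 and 10.08 against 9.91 and 10.07 under pA AMO, and 9.88 and 10.05 against 9.83 and 10.07 under 5'ss AMO. The sliding clamp Pcna was likewise level, at -0.05 with PDGF-AA (SE 0.068). Its 2 clusters gave like values, with the same mean of 9.97. A gene named only for its wide range, Tk1, encodes the salvage enzyme thymidine kinase 1. For Tk1 the control AMO arrays read 7.41 and 7.41 without and 7.55 and 7.09 with PDGF-AA, the pA AMO arrays 7.01 and 6.99 and then 7.55 and 7.18, and the 5'ss AMO arrays 7.08 and 7.01 and then 7.26 and 7.16. Tk1 was higher with PDGF-AA under pA AMO by 0.36 (SE 0.16, unadjusted p = 0.0444, adjusted p = 1.0 in limma), and replicate 1 carried most of it, at 0.53 against 0.19 in replicate 2. Without PDGF-AA it was below control AMO under pA AMO, at -0.41 (unadjusted p = 0.0274), and under 5'ss AMO, at -0.36 (unadjusted p = 0.0436), and neither passed (adjusted p = 1.0 in limma). Its 2 clusters disagree on the averaged PDGF-AA difference, at 0.15 for the brighter one used here and -0.06 for the other.

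The other S-phase members with wide ranges had their lowest value on 5'ss AMO with PDGF-AA replicate 1, though not all were low there alone. Under control AMO Mcm5 stood at 7.85 and 7.55 without and 7.68 and 7.42 with PDGF-AA, under pA AMO at 7.85 and 7.77 without and 7.78 and 7.72 with it, and under 5'ss AMO at 7.76 and 7.60 without and 7.35 and 7.61 with it. Mcm3 read 7.61 and 7.31 with control AMO alone and 7.57 and 7.62 with PDGF-AA added, 7.53 and 7.46 with pA AMO alone and 7.52 and 7.66 with PDGF-AA, and 7.45 and 7.53 with 5'ss AMO alone and 7.18 and 7.47 with PDGF-AA. Values of Rrm2 without and with PDGF-AA were 8.80 and 8.55 against 8.57 and 8.63 under control AMO, 8.84 and 8.84 against 8.77 and 8.68 under pA AMO, and 8.72 and 8.60 against 8.34 and 8.84 under 5'ss AMO. Helicase subunits Mcm3 and Mcm5 and the ribonucleotide reductase subunit Rrm2 all had their lowest value on 5'ss AMO with PDGF-AA replicate 1, and replicate 2 of that group lay within the range of the other arrays. For Rrm1 the control AMO arrays read 9.27 and 9.07 without and 9.00 and 8.99 with PDGF-AA, the pA AMO arrays 9.29 and 9.33 and then 9.20 and 9.09, and the 5'ss AMO arrays 9.20 and 9.22 and then 8.91 and 9.28. Rrm1, the large subunit of the same enzyme, had the same lowest array, but it was not low on that array alone. Under control and pA AMO both Rrm1 arrays with PDGF-AA lay below both without it. Averaged over AMOs its PDGF-AA difference was -0.15 (SE 0.073, unadjusted p = 0.0642 in limma), and it did not pass. For Mcm5 the value of 7.42 on control AMO with PDGF-AA replicate 2 was near its lowest, 7.35. The remaining S-phase members (Mcm4, Mcm6, Mcm7, the licensing factors Cdc6 and Cdt1, the helicase partners Cdc45, Gins1 and Gins2, and thymidylate synthase Tyms) spanned 0.26 to 0.38.

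Under pA AMO the PDGF-AA difference was above 0 for all 23 mitotic members, with a median of 0.16, while 10 of 16 S-phase members were below 0 (median -0.03) and 47.4% of all clusters lay above 0. Within replicates the mitotic medians were 0.248 (23 of 23 above 0) and 0.086 (21 of 23). The 21 members higher in both replicates compare with 24.2% of all clusters. In the same comparison the myogenic markers had a median of -0.49 (8 of 8 below 0, 2 at an unadjusted p under 0.05) and the adipocyte markers one of -0.40 (6 of 7 below 0), and their part in the mitotic values was not tested. Myogenic means were 7.25 and 6.75 without and 6.74 and 6.50 with PDGF-AA, and adipocyte means 8.03 and 8.95 without and 7.55 and 8.74 with it. Bub1, a kinase of the spindle checkpoint, had the largest of these differences, 0.47 (SE 0.18, unadjusted p = 0.0264, adjusted p = 1.0 in limma), with values of 6.48 and 6.82 without and 7.13 and 7.10 with PDGF-AA. No member passed in limma, and Bub1 alone among mitotic members had an unadjusted p under 0.05, beside 1.17% of clusters on the higher side. With the block 4 did (Bub1, Ccnb2, Cenpf and Kif20a), beside 2.62%. Over all clusters 0 of 21789 passed (0.0%), and 2.37% had an unadjusted p under 0.05. The direction of the mitotic median held without each array in turn, at 0.12 to 0.25, the highest without pA AMO alone replicate 2.

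Under control AMO the mitotic members had no single direction with PDGF-AA. Their median was 0.09 in the fit, with 17 of 23 above 0, beside 53.3% of all clusters. It was -0.048 within replicate 1 (8 of 23 above 0) and 0.219 within replicate 2 (23 of 23). Without control AMO alone replicate 2, the low array of that group, the median was -0.06, and without replicate 1 it was 0.22. That low array also had the lowest myogenic mean of the 12 (6.29), whose part was not tested. Members higher in both replicates numbered 8, beside 30.9% of all clusters. The S-phase median was -0.07, at -0.074 and 0.031 within replicates. No cluster of 21789 passed (0.0%), and 4.81% had an unadjusted p under 0.05, among members Ccnd2 at 0.29 (SE 0.106) and Kif20a at 0.28 (SE 0.118).

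Under 5'ss AMO the mitotic median with PDGF-AA was -0.12, with 22 of 23 below 0, beside 48% of all clusters above 0, and 1 array carried it. Within replicate 1 the median was -0.321 (22 of 23 below 0) and within replicate 2 it was 0.059 (5 of 23 below 0). Those 5 were lower in both replicates, beside 25.6% of all clusters. Without the array of 5'ss AMO with PDGF-AA replicate 1 it turned to 0.03, and without replicate 2 of that group it was -0.34. The S-phase median of -0.04 turned to 0.07 without replicate 1. Adipocyte genes on the replicate 1 array were the highest of all 12 (mean 9.66 against 8.83 in replicate 2 of the group), Adipoq at 9.31 and Fabp4 at 10.33, and their part in the mitotic values was not tested. No cluster passed (0.0%), 1.64% had an unadjusted p under 0.05, and no member was among them. In limma with the block 2 members had such a p, Kif20a (0.0277) and E2f1 (0.0316). Both were lower, beside 2.32% of clusters on that side.

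**Figure D3:**
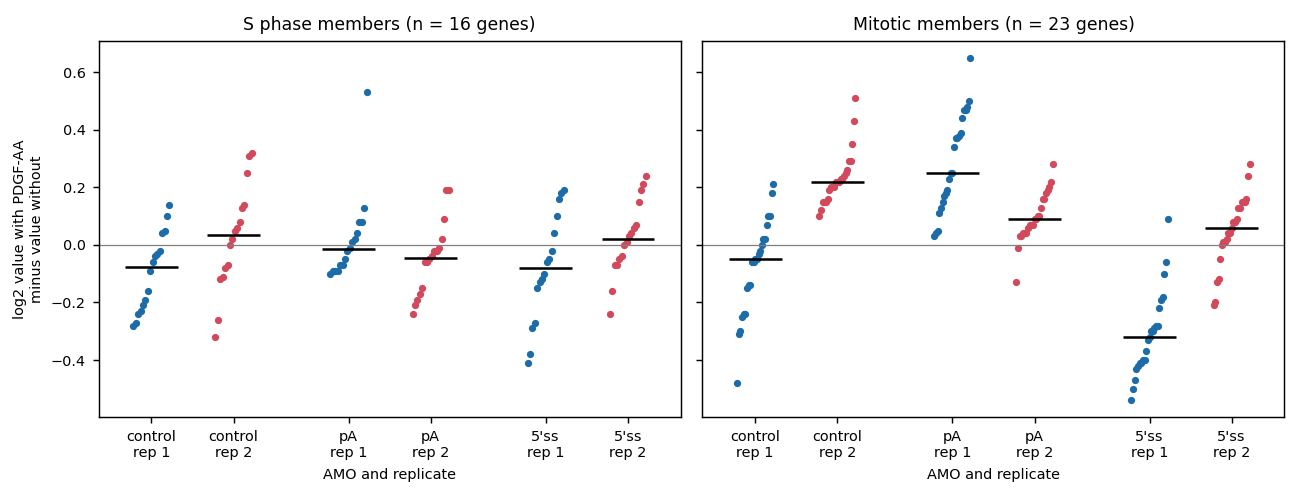
Difference with PDGF-AA (log2 value with minus without, y) for each S-phase member (left) and mitotic member (right), by AMO and replicate (x); each point is a gene and bars are medians. All 23 mitotic members lie above 0 for pA AMO replicate 1 and control AMO replicate 2, and 22 lie below 0 for 5'ss AMO replicate 1.

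Averaged over the 3 AMOs, PDGF-AA gave a mitotic median of 0.04 with 20 of 23 above 0, beside 50.8% of clusters. The median was below 0 when either of 2 arrays was left out. It was -0.02 without replicate 2 of the 5'ss AMO group with PDGF-AA, 0.10 without replicate 1 of that group, -0.0042 without control AMO alone replicate 2 and 0.10 without control AMO alone replicate 1. It was 0.0092 without pA AMO alone replicate 1. In that comparison 0 of 21789 clusters passed in limma (0.0%) and 3.39% had an unadjusted p under 0.05, with 1 of the 48 members among them, Ccnd2. With the block 21 clusters passed (0.0964%) and no member did, the smallest member adjusted p being 0.432.

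The PDGF-AA differences of the AMOs were then compared with each other. Between pA and 5'ss AMO the mitotic members differed by a median of 0.26, all 23 above 0, and the S-phase members by 0.04 (9 of 16 above 0), beside 50.2% of all clusters above 0. None passed (0.0% of clusters, smallest member adjusted p = 1.0, and 0.875 with the block), and 2 mitotic members (Kif20a and Bub1) and the regulator E2f1 had an unadjusted p under 0.05, beside 0.909% of clusters on the higher side. Leaving out replicate 1 of 5'ss AMO with PDGF-AA, the mitotic median was 0.13 and the S-phase median -0.06, and leaving out replicate 2 of that group they were 0.44 and 0.14. Markers differed more in this contrast, with a median of -1.37 for adipocyte (7 of 7 below 0) and -0.64 for myogenic genes (7 of 8 below 0, 2 at an unadjusted p under 0.05), and their part was not tested. Between 5'ss and control AMO the mitotic median was -0.22 (21 of 23 below 0), beside 46.2% of clusters above 0. It was -0.01 without replicate 1 of 5'ss AMO with PDGF-AA. Kif20a had an unadjusted p under 0.05 there, beside 1.97% of clusters on the lower side. Between pA and control AMO the median was 0.11, and -0.09 without control AMO alone replicate 1, and no member had such a p, beside 2.59% of clusters. No cluster passed in either (0.0%). PDGF-AA differences of opposite sign in both replicates were seen for 8 members between pA and 5'ss AMO (12.7% of clusters), 5 between 5'ss and control AMO (12.8%) and 0 between pA and control AMO (13.8%).

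Of the 14 comparisons, pA against 5'ss AMO averaged over PDGF-AA, with 4 arrays each, had the most mitotic members at an unadjusted p under 0.05. All 23 mitotic members were above 0, from 0.05 (Cdk1) to 0.39 (Prc1), with a median of 0.27. The S-phase median was 0.06, with 13 of 16 above 0, and over all clusters the median was -0.0013 with 49.5% above 0. Adipocyte markers had a median of -0.44 (6 of 7 below 0) and myogenic markers one of 0.14 (7 of 8 above 0), and their part was not tested. No member passed in limma (smallest adjusted p = 1.0, and 0.19 for Kif20a with the block). Of all 21789 clusters 0 passed (0.0%), and 6 did with the block (0.0275%). At an unadjusted p under 0.05 on the higher side were 12 of 23 mitotic and 0 of 16 S-phase members, beside 1.66% of clusters. With the block these were 14 and 2, beside 3.87%. The 12 were Kif20a, Cenpf, Mki67, Prc1, Nuf2, Tpx2, Ccna2, Plk1, Ccnb2, Kif11, Hmmr and Birc5. They encode motors and microtubule binders of the spindle and midzone (Kif20a, Kif11, Prc1, Tpx2, Hmmr), kinetochore proteins (Cenpf, Nuf2), cyclins (Ccna2, Ccnb2), the kinase Plk1, the chromosomal passenger Birc5 and the proliferation antigen Mki67.

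That count depends on single arrays. Without the array of 5'ss AMO with PDGF-AA replicate 1 it was 4 of 23, with the median at 0.18 and 21 above 0, and this is the array with the highest adipocyte mean (9.66). With the block in addition it was 6 of 23, with the median at 0.17 and 19 above 0. It was also lower without pA AMO with PDGF-AA replicate 1 (5), without pA AMO alone replicate 2 (6) and without 5'ss AMO alone replicate 2 (7), and reached 17 without the array of 5'ss AMO with PDGF-AA replicate 2. The median remained above 0 without each array in turn. With PDGF-AA both pA arrays were above both 5'ss arrays for 19 of 23 mitotic members (14.9% of clusters) and 7 of 16 S-phase members. Without PDGF-AA this held for 6 of 23 and 6 of 16 (9.09% of clusters). The difference was above 0 in all 4 within-replicate comparisons for 8 of 23 mitotic and 3 of 16 S-phase members (7.67% of clusters). All 4 pA arrays were above all 4 5'ss arrays for 4 mitotic and 0 S-phase members, beside 0.996% of clusters.

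**Figure D4:**
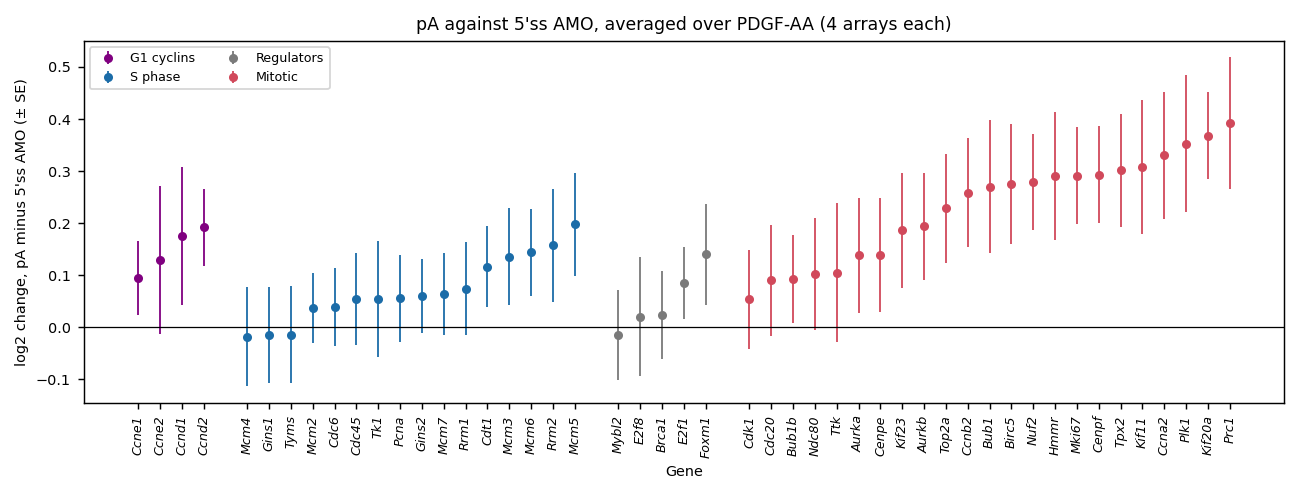
Log2 difference between pA and 5'ss AMO averaged over PDGF-AA (y, with the standard error of the limma fit) for each member (x), in the order G1 cyclins, S phase, regulators, mitotic. Mitotic members run from 0.05 to 0.39 and S-phase members from -0.02 to 0.20.

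The values behind this comparison are given by role, starting with the spindle motors. Under control AMO Kif20a stood at 8.45 and 8.16 without and 8.66 and 8.52 with PDGF-AA, under pA AMO at 8.39 and 8.48 without and 8.77 and 8.61 with it, and under 5'ss AMO at 8.37 and 8.27 without and 8.08 and 8.08 with it. Kif20a, a kinesin of the central spindle, read the same on both 5'ss arrays with PDGF-AA, below the other 10 arrays, and its difference between pA and 5'ss AMO was 0.37 (SE 0.083, unadjusted p = 0.00126). Against control AMO with PDGF-AA, 5'ss AMO was at -0.51 (SE 0.118, unadjusted p = 0.00139, adjusted p = 0.544 in limma and 0.0926 with the block). Kif11 read 7.31 and 6.92 with control AMO alone and 7.01 and 7.14 with PDGF-AA added, 7.09 and 7.28 with pA AMO alone and 7.34 and 7.45 with PDGF-AA, and 6.99 and 7.24 with 5'ss AMO alone and 6.60 and 7.11 with PDGF-AA. Kif11 drives spindle pole separation, and its low value is that of 5'ss AMO with PDGF-AA replicate 1 alone. Values of Prc1 without and with PDGF-AA were 7.65 and 7.15 against 7.59 and 7.66 under control AMO, 7.46 and 7.67 against 7.94 and 7.86 under pA AMO, and 7.42 and 7.45 against 7.01 and 7.48 under 5'ss AMO. Prc1, which bundles midzone microtubules, had its highest values on both pA arrays with PDGF-AA and its lowest on the same single array. For Tpx2 the control AMO arrays read 8.01 and 7.71 without and 8.08 and 8.00 with PDGF-AA, the pA AMO arrays 8.08 and 8.19 and then 8.41 and 8.17, and the 5'ss AMO arrays 8.02 and 8.01 and then 7.60 and 8.02. Tpx2 activates Aurora A on the spindle, and its pA values were above its control values by 0.26 (SE 0.109, unadjusted p = 0.0352, adjusted p = 1.0).

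Under control AMO Hmmr stood at 7.56 and 7.15 without and 7.26 and 7.40 with PDGF-AA, under pA AMO at 7.49 and 7.66 without and 8.00 and 7.68 with it, and under 5'ss AMO at 7.53 and 7.50 without and 7.12 and 7.51 with it. Hmmr, a spindle and hyaluronan-binding protein, had its top value on pA AMO with PDGF-AA replicate 1, and with PDGF-AA it was above control AMO by 0.51 (SE 0.173, unadjusted p = 0.0144, adjusted p = 0.95). Plk1 read 8.20 and 7.73 with control AMO alone and 8.17 and 7.96 with PDGF-AA added, 7.95 and 7.88 with pA AMO alone and 8.34 and 7.95 with PDGF-AA, and 7.93 and 7.66 with 5'ss AMO alone and 7.42 and 7.70 with PDGF-AA. The mitotic kinase Plk1 ranged over 0.92, and replicate 1 was above replicate 2 in every group but 5'ss AMO with PDGF-AA. With 5'ss AMO it was at -0.34 against control AMO (SE 0.132, unadjusted p = 0.028). Values of Ccna2 without and with PDGF-AA were 8.12 and 7.86 against 8.09 and 8.08 under control AMO, 7.92 and 8.12 against 8.29 and 8.21 under pA AMO, and 7.96 and 7.85 against 7.42 and 8.00 under 5'ss AMO. Cyclin A2, which acts from S phase to early mitosis, had its lowest value far below its others on 1 array, 7.42 against a next lowest of 7.85.

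Proliferation and chromosome genes follow. The 5 mitotic members printed for their widest ranges are all among the genes above, so spans are not compared by role. For Mki67 the control AMO arrays read 8.74 and 8.45 without and 8.50 and 8.65 with PDGF-AA, the pA AMO arrays 8.69 and 8.78 and then 8.87 and 8.85, and the 5'ss AMO arrays 8.66 and 8.41 and then 8.38 and 8.57. Mki67 marks dividing cells; with pA AMO all 4 values were at or above 8.69, while with 5'ss AMO all 4 were at or below 8.66, so these groups did not overlap. Under control AMO Top2a stood at 8.43 and 8.13 without and 8.37 and 8.33 with PDGF-AA, under pA AMO at 8.21 and 8.44 without and 8.58 and 8.60 with it, and under 5'ss AMO at 8.36 and 8.30 without and 7.93 and 8.33 with it. Top2a, the topoisomerase that untangles chromosomes, was highest on the 2 pA arrays with PDGF-AA. Cdk1 read 7.85 and 7.61 with control AMO alone and 7.80 and 7.71 with PDGF-AA added, 7.55 and 7.76 with pA AMO alone and 7.79 and 7.80 with PDGF-AA, and 7.80 and 7.62 with 5'ss AMO alone and 7.50 and 7.78 with PDGF-AA. Cdk1, the kinase that drives entry into mitosis, had the smallest difference of the mitotic members between pA and 5'ss AMO, 0.05 (SE 0.094), and its groups overlapped. Values of Cenpe without and with PDGF-AA were 6.82 and 6.64 against 6.58 and 6.76 under control AMO, 6.62 and 7.01 against 7.10 and 7.06 under pA AMO, and 6.64 and 6.93 against 6.73 and 6.93 under 5'ss AMO. For the kinetochore motor Cenpe, pA AMO with PDGF-AA was above control AMO with PDGF-AA by 0.41 (SE 0.156, unadjusted p = 0.0248, adjusted p = 0.95).

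The other mitotic members, namely Ccnb2, Bub1, the checkpoint proteins Bub1b and Ttk, the Aurora kinases Aurka and Aurkb, the midzone kinesin Kif23, the kinetochore proteins Cenpf, Ndc80 and Nuf2, the anaphase activator Cdc20 and Birc5, spanned 0.40 to 0.84 over the arrays. Their pA against 5'ss differences ran from 0.09 (Cdc20 and Bub1b) to 0.29 (Cenpf).

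**Figure D5:**
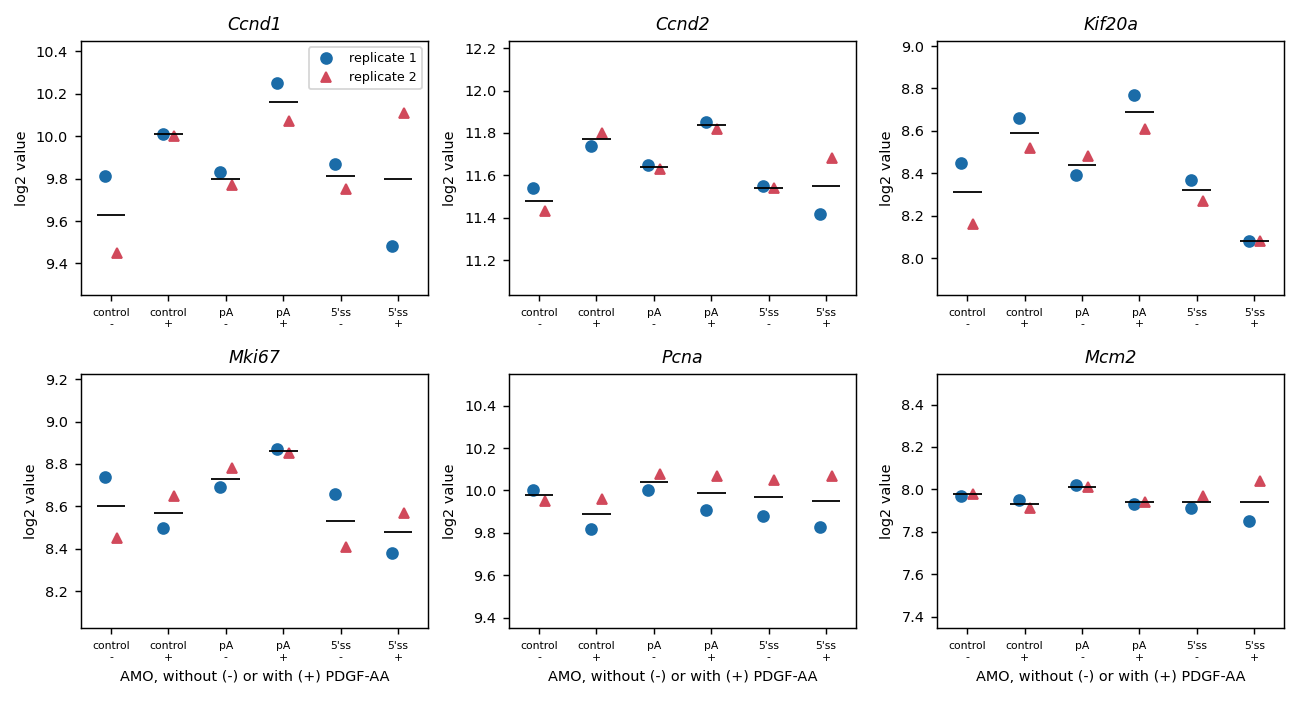
Log2 values of Ccnd1, Ccnd2, Kif20a, Mki67, Pcna and Mcm2 on each array (y, every panel spans the same 1.2 log2 range), by AMO without (-) or with (+) PDGF-AA; circles are replicate 1, triangles replicate 2 and bars group means. Kif20a reads 8.08 on both 5'ss arrays with PDGF-AA, while Ccnd1 differs between the replicates of that group (9.48 and 10.11).

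Against control AMO the mitotic members lay on opposite sides for the other AMOs. The 2 comparisons share the control arrays and are given side by side only. With pA AMO, averaged over PDGF-AA, the mitotic median was 0.10 (20 of 23 above 0) and the S-phase median 0.03 (13 of 16), beside 45.1% of clusters above 0. Hmmr, Tpx2, Mki67 and Cenpe had an unadjusted p under 0.05 on the higher side, 4 of 23 mitotic members beside 1.36% of clusters. With 5'ss AMO the mitotic median was -0.11 (20 of 23 below 0) and the S-phase median -0.03 (12 of 16 below 0), beside 46.6% of clusters above 0. Kif20a and Plk1 had an unadjusted p under 0.05 on the lower side, 2 of 23 beside 2.77% of clusters. No cluster passed in either comparison (0.0%), and with the block 0 and 3 did (0.0% and 0.0138%), none of them a member. Without control AMO alone replicate 2 the pA median was 0.03 and without replicate 1 it was 0.18, and the 5'ss median was -0.03 without the array of 5'ss AMO with PDGF-AA replicate 1 and -0.20 without replicate 2.

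In the groups without PDGF-AA the classes were close to control AMO on average, while the replicates opposed each other. The mitotic median was 0.05 with pA AMO alone, made of -0.182 within replicate 1 and 0.289 within replicate 2, and 0.00 with 5'ss AMO alone, made of -0.130 and 0.108. Leaving out the low control array turned the pA median to -0.10. With PDGF-AA, where the control arrays lay close together, the pA median was 0.14, at 0.168 and 0.128 within replicates and with 18 of 23 higher in both (25.8% of clusters). Leaving out replicate 2 of the control group gave 0.09, and leaving out replicate 2 of the pA group gave 0.23. Hmmr, Cenpe and Bub1 had an unadjusted p under 0.05, beside 1.82% of clusters on the higher side. The 5'ss median was -0.22, at -0.413 and -0.029, with 14 of 23 lower in both (33.4% of clusters), and was -0.06 when replicate 1 of 5'ss AMO with PDGF-AA was left out and -0.39 when replicate 2 was. Adipocyte markers had a median of 1.12 in this comparison (6 of 7 above 0), and their part was not tested. Kif20a and Plk1 had an unadjusted p under 0.05 on the lower side, beside 3.52% of clusters. In limma 0 clusters passed in these 4 comparisons (0.0%), with 1.49% and 2.07% at an unadjusted p under 0.05 without PDGF-AA and 4.89% and 6.0% with it. With the block, 5'ss AMO differed from control AMO in 1 cluster without PDGF-AA (0.00459%) and in 22 with it (0.101%), and no member was among them.

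Between pA and 5'ss AMO 4 of 5 regulators were above 0, with a median of 0.02, beside 49.5% of all clusters. With PDGF-AA averaged over AMOs 4 of 5 were below 0, with a median of -0.01, beside 50.8% of clusters above 0. Under 5'ss AMO all 5 were lower with PDGF-AA within replicate 1 and 4 of 5 were higher within replicate 2. Of all clusters 49.3% and 48.0% were above 0 there. For E2f8 the control AMO arrays read 6.85 and 6.61 without and 6.62 and 6.64 with PDGF-AA, the pA AMO arrays 6.74 and 6.71 and then 6.76 and 6.73, and the 5'ss AMO arrays 6.65 and 6.63 and then 6.50 and 7.07. E2f8, a repressor of E2F targets, had both its extremes in 5'ss AMO with PDGF-AA, replicate 1 lowest and replicate 2 highest. Under control AMO Foxm1 stood at 6.99 and 6.63 without and 6.79 and 6.67 with PDGF-AA, under pA AMO at 6.93 and 6.88 without and 7.02 and 6.79 with it, and under 5'ss AMO at 6.82 and 6.80 without and 6.62 and 6.81 with it. Foxm1, the activator of mitotic genes, had replicate 1 above replicate 2 in 5 groups. E2f1, the activating E2F, was at -0.27 between 5'ss and control AMO when both had PDGF-AA (SE 0.098, unadjusted p = 0.0211, adjusted p = 0.823). Mybl2, which encodes B-Myb, and the DNA repair gene Brca1 spanned 0.29 and 0.30.

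Other genes of the pathway were read from further lists, in the same pA against 5'ss comparison. They share its arrays, among them 5'ss AMO with PDGF-AA replicate 1, and no values without that array are given for them. Over all clusters 49.5% were above 0 there, and 1.66% had an unadjusted p under 0.05 on the higher side. Of 30 other mitotic genes 29 were above 0 (median 0.20) and 10 had such a p, such as Anln, an actin scaffold of the cleavage furrow, at 0.34 (SE 0.091) and the microtubule-depolymerising kinesin Kif2c at 0.37 (SE 0.10). Of 26 other replication genes 20 were above 0 (median 0.07) and 1 had such a p, Chaf1b, a histone chaperone subunit, at 0.22 (SE 0.092). Of 10 other kinases and phosphatases 8 were above 0, with Cdk6, a partner of D cyclins, at 0.33 (SE 0.114), and Cdk4 was at -0.0028. Of 7 other E2F and MuvB factors 3 were above 0. Of 9 inhibitors and pocket proteins 4 were above 0; Cdkn2b, the p15 inhibitor of Cdk4 and Cdk6, was at -0.36 (SE 0.093, unadjusted p = 0.00277, beside 1.81% of clusters on the lower side), and Cdkn1b, p27, was at 0.02. No gene of these lists passed (adjusted p = 1.0 for Cdkn2b, and 0.287 with the block). Cdkn1a had no cluster with a single symbol.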

How the data were processed

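Labelled cDNA from 100 ng of RNA was hybridised to 12 Affymetrix Mouse Gene 1.0 ST arrays, per the labels. The values the authors deposited are on the log2 scale and come from RMA, run in Affymetrix Expression Console according to the notes on processing, with versions not given in the sources used here. Of 35556 transcript clusters, 21789 carried 1 gene symbol in the platform annotation, and 21698 of these matched a RefSeq gene of GRCm38.p6. limma 3.58.1 in R 4.3.3 was run with a mean for each of the 6 groups on the 12 arrays (6 residual degrees of freedom, no trend). Benjamini-Hochberg adjustment covered all 21789 clusters, with a threshold of 0.05. The fit was also run on simulated data with known changes. Those data carried no difference between replicate numbers, so they do not show how the fit behaves where there is one.

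Every group has replicates 1 and 2, and no label says what a number shares. Arrays of the same number deviated together from their groups' means: r lay between 0.197 and 0.613 over 15 pairs of groups, above the criterion of 0.1. By correlation, 12 arrays had their closest match under the same replicate number, and 0 had it in the other array of their group. The numbers were therefore taken to pair the samples, on the data and not on the labels. The main fit does not use this pairing, and p-values come from that fit unless another is named. The fit with the replicate block (5 residual degrees of freedom) was an alternative and is given for part of the results only. P-values of the main fit measure the spread between the arrays of a group, each from a pool of 2 mice. Those of the block fit measure the spread left once the difference between replicate numbers is removed. No label says whether groups of the same number share a pool, so the number of independent pools is not known.

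The members and lists were chosen with earlier results of these data known. Values on every array are given for fixed genes, for members with the widest ranges (5 S-phase, 5 mitotic, 2 regulators) and for those with an unadjusted p under 0.05 in an averaged comparison of PDGF-AA or of pA or 5'ss with control AMO. Other lists are represented by the genes with the smallest p. Alternatives were the block, a filter on dim clusters (mean above 5.516, the 40 percent mark), all 35556 clusters, median centring, repeated quantile normalization, trend and robust moderation, array weights, the mean over a gene's clusters, and leaving out each array. The number of arrays limits the precision.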

Additional observations from a re-analysis of the deposited data

Results flagged for a closer look

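In 13 cases the PDGF-AA difference of a member had one sign in both replicates under one AMO and the opposite sign in both under another. Such cases made up 12.7% of all clusters between pA and 5'ss AMO and 12.8% between 5'ss and control AMO, so the 8 and 5 of 48 members are no more than a list of genes. The difference between the AMOs was tested as an interaction in limma, and none passed (adjusted p = 1.0 for each, and 0.467 to 0.974 with the replicate block).

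Between pA and 5'ss AMO, Kif20a differed by 0.50, with PDGF-AA differences of 0.38 and 0.13 under pA AMO and -0.29 and -0.20 under 5'ss AMO. Kif11 differed by 0.48, Bub1b by 0.25, Ndc80 by 0.23, E2f1 by 0.31 and Cdc45 by 0.14. Gins1 and Cdc6 had the opposite sign, at -0.30 and -0.27. Between 5'ss and control AMO the values were -0.53 for Kif20a, whose control AMO differences were 0.21 and 0.35, -0.23 for Bub1b, -0.27 for E2f1, -0.14 for Cdc45 and 0.30 for Ccne2.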

How the results depend on the processing

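No member passed the adjusted threshold under any of the alternatives run, with or without the replicate block, so the statements on members rest on directions, medians and unadjusted p-values. With the replicate block the clusters that passed numbered 21 for PDGF-AA averaged over AMOs, 6 between pA and 5'ss AMO, 3 between 5'ss and control AMO, and 1 and 22 for the latter pair without and with PDGF-AA. It also put 2 S-phase members at an unadjusted p under 0.05 between pA and 5'ss AMO. For averaged PDGF-AA it put 3 members at such a p on the higher side and 1 on the lower, beside 4.09% and 3.93% of clusters. For 5'ss against control AMO, averaged over PDGF-AA, 5 members were lower at such a p, beside 6.82%. For pA against control AMO, both with PDGF-AA, 6 members were higher, beside 5.2%. Trend and robust moderation gave 39 clusters for averaged PDGF-AA, 13 for PDGF-AA under control AMO, 7 for 5'ss against control AMO, 2 for pA against 5'ss AMO and 6 for 5'ss against control AMO with the ligand. In that last comparison the filter on dim clusters, median centring and the mean over a gene's clusters gave 1 cluster each, and repeated quantile normalization gave 5. Repeated quantile normalization put 1 S-phase member at an unadjusted p under 0.05 between pA and 5'ss AMO. The cause of these differences was not tested.

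Leaving out each array in turn moved several medians. Between pA and 5'ss AMO the mitotic members at an unadjusted p under 0.05 numbered 4 to 17 and the S-phase members 0 to 3. Clusters that passed for 5'ss against control AMO numbered 0 to 1, averaged or with PDGF-AA. For PDGF-AA under control AMO the mitotic median ran from -0.061 to 0.22, and under 5'ss AMO from -0.34 to 0.033 (S phase -0.13 to 0.071). Against control AMO, the S-phase median ran from 0.013 to 0.078 for pA AMO and from -0.072 to 0.018 for 5'ss AMO. Without PDGF-AA, pA AMO gave -0.10 to 0.19 for mitotic and -0.0002 to 0.11 for S-phase members, and 5'ss AMO gave -0.14 to 0.14 and -0.0715 to 0.048. With PDGF-AA, 5'ss AMO gave -0.39 to -0.056 and -0.079 to 0.012. The difference in PDGF-AA response ran, for mitotic and S-phase members, from -0.0875 to 0.25 and -0.050 to 0.088 between pA and control AMO, from -0.38 to -0.0093 and -0.076 to 0.10 between 5'ss and control AMO, and from 0.13 to 0.44 and -0.061 to 0.14 between pA and 5'ss AMO.

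One fit, chosen after seeing the data, combined the replicate block with leaving out replicate 1 of 5'ss AMO with PDGF-AA. Between pA and 5'ss AMO it gave a mitotic median of 0.17, 6 mitotic members at an unadjusted p under 0.05 and 1 cluster that passed. The PDGF-AA medians under 5'ss AMO were then 0.067 for mitotic and 0.0515 for S-phase members, and those of 5'ss AMO against control AMO, both with the ligand, were 0.0073 and 0.024. With 2 arrays a group, leaving out 1 assumes that the lone array varies like the other groups.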
